A study of Mus musculus with 2 samples.

Results

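The genes described here are the chemokines and the receptors that read chemoattractants, measured in cultured mouse macrophages with and without calpain-6. The set holds 44 named genes, 27 CC, CXC and CX3C ligands and 17 receptors, among them the chemerin and formyl peptide receptors. It leaves out other genes of these families, such as Ccl19, Ccr4 and Cxcr1. The probes were the non-control ones whose RefSeq accession belongs to a named gene. Of these, 43 had at least 1 probe on the array, 47 probes in all, against 20660 named genes and 27232 named probes on the whole array. A gene counted as measured when a probe of it was well above background on both arrays, which held for 31 members, 17 ligands and 14 receptors, and for 12875 genes in all. The gene without a matched probe was Cxcl11, an interferon-inducible ligand.

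Capn6-Ko macrophages came from mice deficient in calpain-6, and Capn6-Wt macrophages from wild-type mice. The calpains are proteases that calcium switches on, and calpain-6 lacks their active-site cysteine. Both groups were male, and both cultures were grown from femoral marrow with 50 ng/mL M-CSF, the growth factor of macrophages, 10 ng/mL of the inflammatory cytokine TNF-α and 10% serum. The design text speaks of 4 mice whose cells were pooled, without saying whether that is per group, and 1 array was hybridised per group. Strain, age and the nature of the calpain-6 allele are not given in the sources used here, and the labels name day 3 of culture in 1 field and day 4 in another.

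Chemokines are small secreted proteins, a few of them tethered to the membrane, that bind to receptors coupled to inhibitory G proteins and steer migrating cells along a gradient. Macrophages are both a major source and a target of them. CCR2 with its ligands CCL2 and CCL7 brings monocytes out of the marrow into inflamed tissue, CX3CR1 with the tethered ligand CX3CL1 supports monocyte survival and patrolling, and CXCL12 with CXCR4 holds blood-forming cells and neutrophils in the marrow.

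With 1 array per group there is no spread between replicates and no test between genotypes, and every value describes these 2 RNA pools. The ± after a log2 difference, Capn6-Ko minus Capn6-Wt, is called the spot SD. It is the SD expected of that difference from the scatter of replicated spots at its signal level. More spots or probes make it smaller. It holds no spread between mice, cultures or labellings. The precision is limited by the number of arrays. Genes were counted as higher at 25% more signal in Capn6-Ko and as lower at 20% less, which is 0.32 on the log2 scale either way.

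The well-above-background call was reached by 52.8% of spots on the Capn6-Ko array and 51.7% on the Capn6-Wt array, and the 75th percentile of the signal, to which each array was scaled, was 372 and 377. The median log2 difference of all measured genes was -0.0056 and their SD 0.18. Of these 12875 genes 6157 were positive, which is the base for the counts of positive genes given below. The single Capn6 probe read 8.65 in Capn6-Ko and 3.93 in Capn6-Wt, not well above background on either array, so it does not check the labels. The macrophage label was borne out by its markers. The M-CSF receptor gene Csf1r read 131530 in Capn6-Ko and 115464 in Capn6-Wt at its brightest probe, and Adgre1, the F4/80 antigen, read 27416 and 24571.

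The ligands Ccl2, Ccl7, Cxcl12 and Cx3cl1, which attract or hold monocytes and their precursors, had 0.697 to 0.745 times the signal in Capn6-Ko macrophages. The receptors Ccr2, Cx3cr1 and Fpr1 and the ligand Ccl9 were higher, by 1.34 to 1.61 times. The other 23 of the 31 measured members differed by less than the sizes set. Thus 4 of 31 members (12.9%) were higher, against 2.64% of all measured genes, and 4 of 31 (12.9%) were lower, against 5.53% of all. All 4 lower members were ligands, 4 of 17 measured, and 3 of the 4 higher members were receptors, 3 of 14 measured. In bulk RNA, fewer cells of a type and less RNA per cell cannot be told apart.

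**Figure D1:**
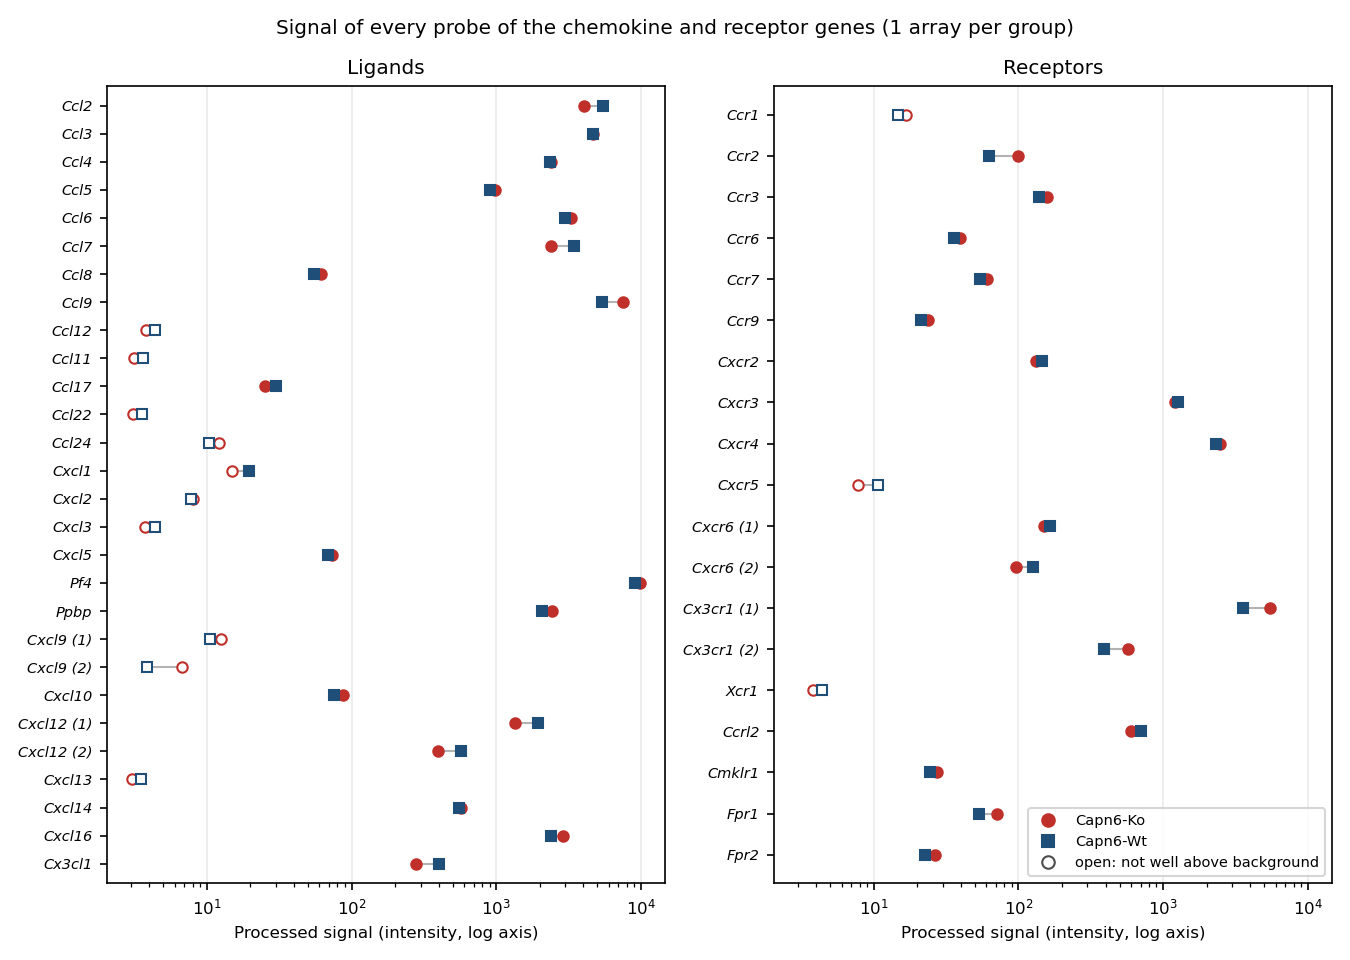
Processed signal (x axis, intensity on a log axis) of every probe of the member genes, ligands left and receptors right, with red circles for Capn6-Ko and blue squares for Capn6-Wt. Open symbols were not well above background. Ccl2, Ccl7, Cxcl12 and Cx3cl1 lie lower in Capn6-Ko, and Ccl9, Ccr2, Cx3cr1 and Fpr1 higher, while most other filled pairs nearly overlap.

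Promoter sequences are shown to set the starts of lower ligands beside those of higher genes. They are RefSeq sequences of the build GRCm38.p6 that run from 250 bases before the gene's start to 50 after it, printed 5′ to 3′ on the strand of the gene. Of the 44 members 33 matched that table, among them 6 of the 8 past the sizes set (all but Ccl2 and Ccl7), and 4 are printed, the lower ligands Cxcl12 and Cx3cl1 and the higher genes Ccl9 and Cx3cr1. Capitals mark 3 motifs, each searched on both strands, namely the TATA box as TATAAA, the GC box as GGGCGG and the AP-1 site as TGANTCA, where N is any base, and overlapping matches were counted each. The TATA letters occur in 13.6% of all 32851 promoters of this length, the GC box in 35.7% and the AP-1 letters in 7.81%, and a match is a description of letters, not of a working site.
Cxcl12, chr6:117168285-117168584, plus strand: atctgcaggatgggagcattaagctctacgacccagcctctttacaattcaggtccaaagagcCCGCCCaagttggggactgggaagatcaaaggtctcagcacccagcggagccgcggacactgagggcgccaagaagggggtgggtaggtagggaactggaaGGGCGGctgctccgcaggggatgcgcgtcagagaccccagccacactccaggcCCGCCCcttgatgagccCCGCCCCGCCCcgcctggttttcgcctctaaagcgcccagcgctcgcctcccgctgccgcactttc
Cx3cl1, chr8:94771930-94772229, plus strand: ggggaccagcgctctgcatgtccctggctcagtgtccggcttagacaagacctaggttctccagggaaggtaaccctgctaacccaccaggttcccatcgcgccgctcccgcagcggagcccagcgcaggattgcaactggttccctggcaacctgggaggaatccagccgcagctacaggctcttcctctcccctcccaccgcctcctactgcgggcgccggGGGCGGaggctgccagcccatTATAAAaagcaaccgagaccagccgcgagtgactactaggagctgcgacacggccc
Ccl9, chr11:83578587-83578886, minus strand: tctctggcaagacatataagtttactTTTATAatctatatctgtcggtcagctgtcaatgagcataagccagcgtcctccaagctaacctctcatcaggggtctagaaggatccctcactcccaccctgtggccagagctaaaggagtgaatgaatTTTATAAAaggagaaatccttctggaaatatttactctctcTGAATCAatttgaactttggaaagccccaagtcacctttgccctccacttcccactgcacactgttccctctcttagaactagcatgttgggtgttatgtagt
Cx3cr1, chr9:120068247-120068546, minus strand: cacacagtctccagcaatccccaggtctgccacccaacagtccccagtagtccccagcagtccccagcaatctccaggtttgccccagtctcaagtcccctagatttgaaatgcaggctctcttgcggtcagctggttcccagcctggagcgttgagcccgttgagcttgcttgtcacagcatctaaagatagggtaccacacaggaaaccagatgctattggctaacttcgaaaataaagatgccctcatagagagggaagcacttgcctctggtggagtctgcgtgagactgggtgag
Cxcl12 and Cx3cl1, 2 of the 4 lower ligands, had 64.7% G and C, with 20 and 19 CpG pairs, beside medians over all promoters of 52.7% and 7. The Cxcl12 window held 5 GC box matches, and the Cx3cl1 window held 1 GC box match and 1 TATA match. The 4 higher members held fewer CpG pairs than these 2 ligands, and the windows of members within the sizes set were not compared. Ccl9 had 43.7% G and C with 2 CpG pairs, 3 TATA matches and 1 AP-1 match, and Cx3cr1 had 54.3% with 5 CpG pairs and none of the 3 motifs. The windows of Ccr2 and Fpr1, not printed, had 38% and 40% G and C and 1 CpG pair each.

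Among the CC ligands that attract monocytes and T cells, 8 of 9 were measured, 1 higher, 2 lower and 5 within the sizes set. Ccl2, the main ligand of Ccr2, is read by 10 spots per array. They averaged 4023 in Capn6-Ko, from 3682 to 4392, and 5469 in Capn6-Wt, from 4980 to 6146. The ranges did not overlap, but the 10 spots are copies of 1 probe read from 1 pool per group, so they hold no spread between pools. The difference was -0.42 ± 0.024. Ccl7, a second ligand of Ccr2, read 2383 in Capn6-Ko and 3451 in Capn6-Wt, a difference of -0.52 ± 0.083. The differences were 17.6 and 6.24 times their spot SDs, which rest on 10 spots per array for Ccl2 and 1 for Ccl7. The genes lie next to each other on chromosome 11. The third of these ligands, Ccl12, was not well above background on either array.

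Ccl9, a rodent ligand of Ccr1, went the other way. It read 7499 in Capn6-Ko and 5426 in Capn6-Wt, or 0.48 ± 0.077. Ccl6, a rodent ligand of the same receptor, read 3302 in Capn6-Ko and 2972 in Capn6-Wt (0.17 ± 0.082). The remaining measured genes of the group were closer together on the arrays. Ccl5 (RANTES) was at 0.12 ± 0.084, Ccl4 at 0.056 ± 0.085 and Ccl3 at 0.023 ± 0.076, the last pair being the inflammatory ligands of macrophages known as MIP-1β and MIP-1α. Ccl3 read 4657 in Capn6-Ko and 4643 in Capn6-Wt. Ccl8, which acts through Ccr8 in mice, was dim, with 62.0 in Capn6-Ko and 55.2 in Capn6-Wt, and its 0.18 ± 0.22 lay within the spot SD. The ligands of eosinophils and of type 2 helper T cells were barely detected. Ccl17 read 25.3 in Capn6-Ko and 29.8 in Capn6-Wt (-0.22 ± 0.33), and Ccl11, Ccl22 and Ccl24 were not well above background on either array.

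By the gene order of GRCm38.p6, 10 of these CC genes lie in 2 runs on chromosome 11, and Ccl24 lies on chromosome 5. In the run Ccl2, Ccl7, Ccl11, Ccl12 and Ccl8 the first 2 were lower, the next 2 were not measured and Ccl8 was at 0.18. In the run Ccl5, Ccl9, Ccl6, Ccl3 and Ccl4 all 5 differences were positive, from 0.023 to 0.48, and 1 of them, Ccl9, passed the size set. On chromosome 8, Cx3cl1 lies between Ccl22 and Ccl17.

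Of the 6 neutrophil-attracting and platelet chemokines 3 were measured, and none passed the sizes set. Pf4, platelet factor 4, read 9819 in Capn6-Ko and 9101 in Capn6-Wt (0.13 ± 0.079). Ppbp, the precursor of the platelet ligand of Cxcr2, read 2437 in Capn6-Ko and 2066 in Capn6-Wt (0.26 ± 0.084). Ppbp stood 3.06 spot SDs from 0 and Pf4 1.61. Megakaryocyte and platelet markers other than these 2 genes were all measured, 10 of 10, with 7 positive, 2 higher, a median of 0.11 and a summed signal, unscaled like all such sums, of 17611 in Capn6-Ko and 17861 in Capn6-Wt. The higher ones were the platelet glycoprotein genes Gp6 (0.47 ± 0.16) and Gp9 (0.33 ± 0.11). The defining gene Itga2b read 306 in Capn6-Ko and 292 in Capn6-Wt, and the part of such cells in the Ppbp value was not tested. Cxcl5, a ligand of Cxcr2, was dim, with 73.7 in Capn6-Ko and 68.8 in Capn6-Wt (0.12 ± 0.19). Cxcl1, another ligand of Cxcr2, was well above background in Capn6-Wt alone. It read 15.0 in Capn6-Ko and 19.4 in Capn6-Wt, an observed ratio of 1.28-fold lower in Capn6-Ko. This ratio sets the Capn6-Wt level against the probe's own level in Capn6-Ko, from 1 spot per array, and is not a lower bound. The spot SD of 0.33 on the log2 scale is nearly as large as the log2 difference of -0.35 behind it. Cxcl2 and Cxcl3 were not well above background on either array.

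Of the interferon-inducible ligands of Cxcr3, 1 of 3 was measured. Cxcl10 read 87.9 in Capn6-Ko and 75.8 in Capn6-Wt (0.23 ± 0.17), under the size set, and both Cxcl9 probes were not well above background on either array. The type I interferon response genes moved in the same direction as Cxcl10. Of 19 listed 15 were measured, 12 were positive, 4 were higher and the median was 0.19, with a summed signal of 10193 in Capn6-Ko and 8513 in Capn6-Wt. The higher ones were Oas2 (0.73 ± 0.085), an enzyme that senses double-stranded RNA, Ifit3 (0.66 ± 0.20), Rtp4 (0.57 ± 0.088) and Oasl2 (0.41 ± 0.095). The share of this response in the Cxcl10 value was not tested.

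The homeostatic and membrane-bound ligands split. Cxcl12 was lower at both of its probes, which stand for different RefSeq transcripts. The brighter probe read 1344 in Capn6-Ko and 1961 in Capn6-Wt (-0.53 ± 0.081), and the dimmer one 398 and 576 (-0.52 ± 0.10). The mean over both, -0.52 ± 0.064, was the lowest of any member, though within the spot SD of those of Ccl7 and Cx3cl1. Cx3cl1, the tethered fractalkine, read 279 in Capn6-Ko and 402 in Capn6-Wt, or -0.51 ± 0.11. Cxcl16, a tethered chemokine that also binds oxidised lipoprotein, read 2890 in Capn6-Ko and 2412 in Capn6-Wt (0.28 ± 0.084). Cxcl16 was thus 1.21-fold brighter, just under the size set, and Fpr1 at 1.34-fold was the higher member closest above it. Cxcl14 read 574 in Capn6-Ko and 553 in Capn6-Wt (0.071 ± 0.096), and the B cell attractant Cxcl13 was not well above background on either array.

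Stromal fibroblast markers were lower together with these 4 ligands. Of 16 listed 15 were measured, 13 of them negative and 11 lower, or 73.3% against 5.53% of all measured genes. The list was chosen with earlier results of these data known, so this share is a description and not independent evidence. Their median was -0.49, with a summed signal of 45504 in Capn6-Ko and 66431 in Capn6-Wt. Col1a2, a chain of type I collagen, read 5485 in Capn6-Ko and 8413 in Capn6-Wt (-0.60 ± 0.078), and Acta2, the smooth muscle actin, differed by -0.60 ± 0.025. The others past the size were Tagln (-0.61 ± 0.079), Col5a1, Sparc, Pdgfrb, Postn, Dcn, Lox, Col1a1 and Fn1 (-0.35 ± 0.076), genes of the contractile skeleton and the extracellular matrix and a growth factor receptor. Under the size were Pdgfra (-0.30 ± 0.071) and Col3a1 (-0.10 ± 0.12), while Fap (0.14 ± 0.17) and Thy1 (0.17 ± 0.33) were positive. Lum was the 1 marker not well above background. The stromal markers ranged from -0.61 to 0.17. That range spans 0 and holds Ccl2, Ccl7, Cxcl12 and Cx3cl1, but also members such as Ccl3 (0.023) and Cxcr4 (0.11). Lying within it therefore does not set the 4 ligands apart. The part of stromal cells in the ligand values was not tested. Cxcl14 was within its spot SD beside the same markers.

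**Figure D2:**
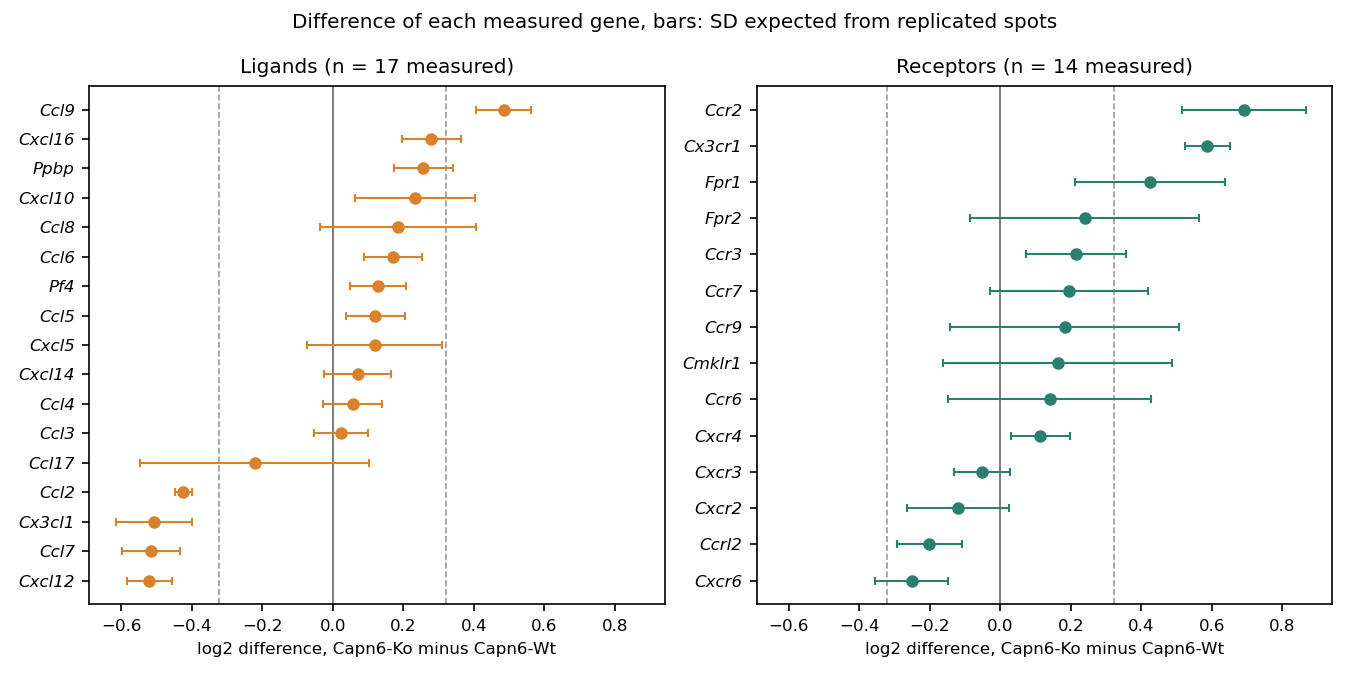
Difference of each measured member (x axis, log2, Capn6-Ko minus Capn6-Wt), ligands left and receptors right, with bars for the SD expected from replicated spots and dashed lines at 0.32 either way. Past the lines lie Ccl9 on the right and 4 ligands on the left, and among receptors Ccr2, Cx3cr1 and Fpr1 on the right and none on the left.

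Of the CC receptors 5 of 6 were measured, all with a positive difference and 1 of them higher. Ccr2, the receptor that brings monocytes out of the marrow, read 99.9 in Capn6-Ko and 62.6 in Capn6-Wt. At 0.69 ± 0.18, or 1.61-fold, it had the highest difference of any member, from 1 spot per array at a low level, and it differed from that of Cx3cr1 by less than its spot SD. With normexp, which adds an offset of 50 to the median signal, the difference was 0.40. With the median signal minus background it was 0.56. Ccr3, the eotaxin receptor of eosinophils, read 158 in Capn6-Ko and 138 in Capn6-Wt (0.21 ± 0.14). The receptors Ccr7, Ccr9 and Ccr6, which guide cells to lymph nodes, to the gut and along Ccl20, were dim. Their differences were 0.19 ± 0.22, 0.18 ± 0.33 and 0.14 ± 0.29, each within the spot SD. Ccr1, the receptor of Ccl9 and Ccl6, was not well above background on either array, with 16.7 in Capn6-Ko and 14.7 in Capn6-Wt.

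Among CXC, CX3C and XC receptors 5 of 7 were measured and 1 was higher. Cx3cr1, the fractalkine receptor, was higher at both of its probes. The brighter read 5457 in Capn6-Ko and 3588 in Capn6-Wt (0.62 ± 0.077), and the dimmer 568 and 392 (0.55 ± 0.10). Their mean was 0.59 ± 0.063, or 1.50-fold. Ccr2 and Cx3cr1, 2 of 31 measured members, had at least 50% more signal in Capn6-Ko, a size reached by 0.334% of all measured genes. The other receptors of this group were closer together on the arrays. Cxcr4, the receptor of Cxcl12, read 2472 in Capn6-Ko and 2314 in Capn6-Wt (0.11 ± 0.085), and Cxcr3 read 1208 and 1267 (-0.051 ± 0.079). Cxcr2, the neutrophil receptor of Cxcl1 and its kin, was at -0.12 ± 0.14, and Cxcr6, the receptor of Cxcl16, at -0.25 ± 0.10. The 2 probes of Cxcr6 gave -0.13 and -0.38, a gap wider than their spot SDs of 0.14 and 0.16. Cxcr5 and Xcr1 were not well above background on either array.

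All 4 chemerin and formyl peptide receptors were measured, and 1 was higher. Fpr1, which senses formylated peptides of bacteria and mitochondria, read 71.0 in Capn6-Ko and 53.5 in Capn6-Wt, or 0.43 ± 0.21. It passed the size set in 8 of 10 other settings, and with normexp and its offset of 50 it was at 0.17. Fpr2, its relative, read 26.3 in Capn6-Ko and 22.6 in Capn6-Wt (0.24 ± 0.33), and Cmklr1, the signalling receptor of chemerin, 27.1 and 24.5 (0.16 ± 0.33). Ccrl2, which binds chemerin without signalling, read 603 in Capn6-Ko and 702 in Capn6-Wt (-0.20 ± 0.092).

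Macrophage and monocyte markers moved in the direction of Ccr2 and Cx3cr1. Of 10 macrophage markers 9 were measured, 7 positive and 2 higher, with a median of 0.19. Their summed signal was 382956 in Capn6-Ko and 360043 in Capn6-Wt, most of it from Lyz2 and the brightest Csf1r probe. The 2 higher markers were the endotoxin co-receptor gene Cd14 (0.36 ± 0.076) and Aif1 (0.36 ± 0.078), and Cd68 had no matched probe. Of 8 monocyte markers 6 were measured, 4 positive, 3 higher and 1 lower, with a median of 0.25. Their summed signal was 100765 in Capn6-Ko and 78429 in Capn6-Wt. Most of it came from the 2 S100a4 probes, with 52538 and 37631 in Capn6-Ko and 40467 and 29401 in Capn6-Wt. F13a1 was at 0.51 ± 0.17, Chil3 at 0.48 ± 0.078 and S100a4 at 0.38 ± 0.058, while Plac8 was at -0.36 ± 0.15. Neutrophil markers, 8 of 10 measured, had a median of -0.033 and 1 higher (Ltf, 0.33 ± 0.16). Their summed signal was 65078 in Capn6-Ko and 69788 in Capn6-Wt. Most of it came from 1 Csf3r probe, with 56502 in Capn6-Ko and 61149 in Capn6-Wt. The defining monocyte gene Ly6c2 and the neutrophil gene Ly6g had no matched probe. The part of cell make-up in the receptor values was not tested.

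Eosinophil, basophil and mast cell markers bear on Ccr3. Of 10 listed 4 were measured, 2 positive and 2 negative. Both positive ones were higher, Siglecf at 0.39 ± 0.11 and Prg2 at 0.53 ± 0.20, against 2.64% of all measured genes. Neither negative one passed the size set, with Il5ra at -0.24 ± 0.30 and Kit at -0.050 ± 0.17. The summed signal of these markers was 947 in Capn6-Ko and 769 in Capn6-Wt. The defining eosinophil gene Epx was not well above background on either array. Their part in the Ccr3 value of 0.21 was not tested.

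**Figure D3:**
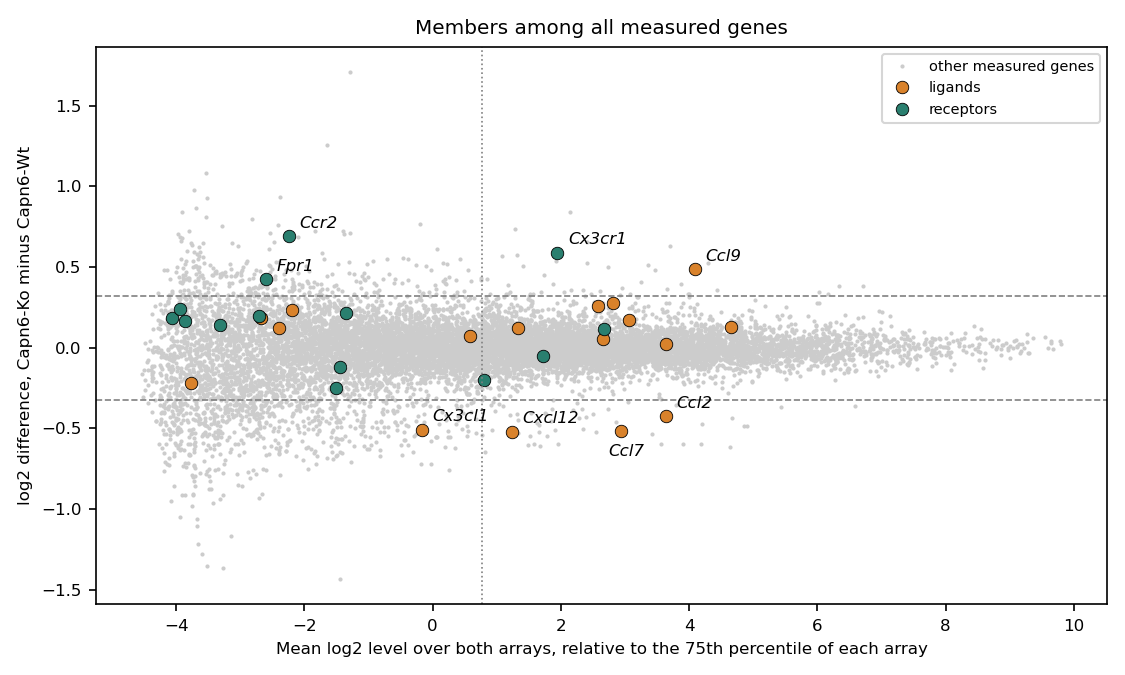
Mean log2 level relative to the 75th percentile (x axis) against the log2 difference, Capn6-Ko minus Capn6-Wt (y axis), for the 12875 measured genes in grey, ligands in orange and receptors in green, with dashed lines at 0.32 either way and a dotted line at the median level. The cloud widens to the left, where most receptors lie, while Ccl9, Cx3cr1, Ccl2, Ccl7 and Cxcl12 stand outside its narrow part.

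Level bears on how these values read, because dim genes scatter more. Of the 31 measured members 15 were above the median level of measured genes, 11 ligands and 4 receptors. Among these 15, Ccl9 and Cx3cr1 were higher, against 0.684% of all genes above the median level, and Ccl2, Ccl7 and Cxcl12 were lower, against 0.886%. Of the 16 members not above the median level, Ccr2 and Fpr1 were higher, against 4.60% of all such genes, and Cx3cl1 was lower, 6.25% of the 16, which is under the 10.2% of all such genes. Among the dimmest 25% of measured genes were 13 members, 10 of them positive and with a median of 0.18. Of all 3219 genes there 44.6% were positive, with a median of -0.031 and an SD of 0.28. Over all members 18 of 31 differences exceeded their spot SD and 12 exceeded it by more than 2 times, beside 4876 and 1474 of all 12875 measured genes.

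Set against each other as groups, ligands and receptors had nearly the same centre. The median difference was 0.17 over 14 receptors and 0.12 over 17 ligands, beside -0.0056 over all measured genes. Their order was not kept, since with brighter probes alone the medians were 0.031 for receptors and 0.071 for ligands. What set the groups apart were their ends. Ligands ran from -0.52 to 0.48 and receptors from -0.25 to 0.69.

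The 32 ligand and receptor pairs that were listed included 12 with both partners measured, among 11 ligands and 10 receptors. The pairs share genes, and only the differences were compared, not levels. In 9 of the 12 the partners had opposite signs. All measured genes split into 6157 positive and 6718 negative, so opposite signs are frequent in any pairs. No share was computed for pairs of other genes. The differences of Cxcl5, Cxcr2, Cxcr3, Cmklr1 and Rarres2 lay within their spot SDs, which leaves their signs uncertain. In 3 of the 12 pairs, Ccl2 with Ccr2, Ccl7 with Ccr2 and Cx3cl1 with Cx3cr1, the receptor was higher and the ligand lower by the sizes set. The receptor stood above the ligand by 1.12 ± 0.18 for Ccl2 with Ccr2, by 1.21 ± 0.19 for Ccl7 with Ccr2 and by 1.095 ± 0.126 for Cx3cl1 with Cx3cr1, in log2 units. For Cxcl12 and Cxcr4 the gap was 0.63 ± 0.11, most of it from the ligand. Cxcl16 and Cxcr6 had the opposite gap, -0.53 ± 0.13, with neither past the sizes set. Ppbp and Cxcl5 with Cxcr2 and Cxcl10 with Cxcr3 had gaps of -0.38 ± 0.17, -0.24 ± 0.24 and -0.28 ± 0.19. The pairs of Ccl19 with Ccr7 (-0.0066 ± 0.31) and Ccl25 with Ccr9 (0.046 ± 0.36) had partners at nearly the same difference, with wide errors. Rarres2, the gene of chemerin, was dim at -0.32 ± 0.33, with gaps of 0.48 ± 0.46 to Cmklr1 and 0.11 ± 0.34 to Ccrl2.

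**Figure D4:**
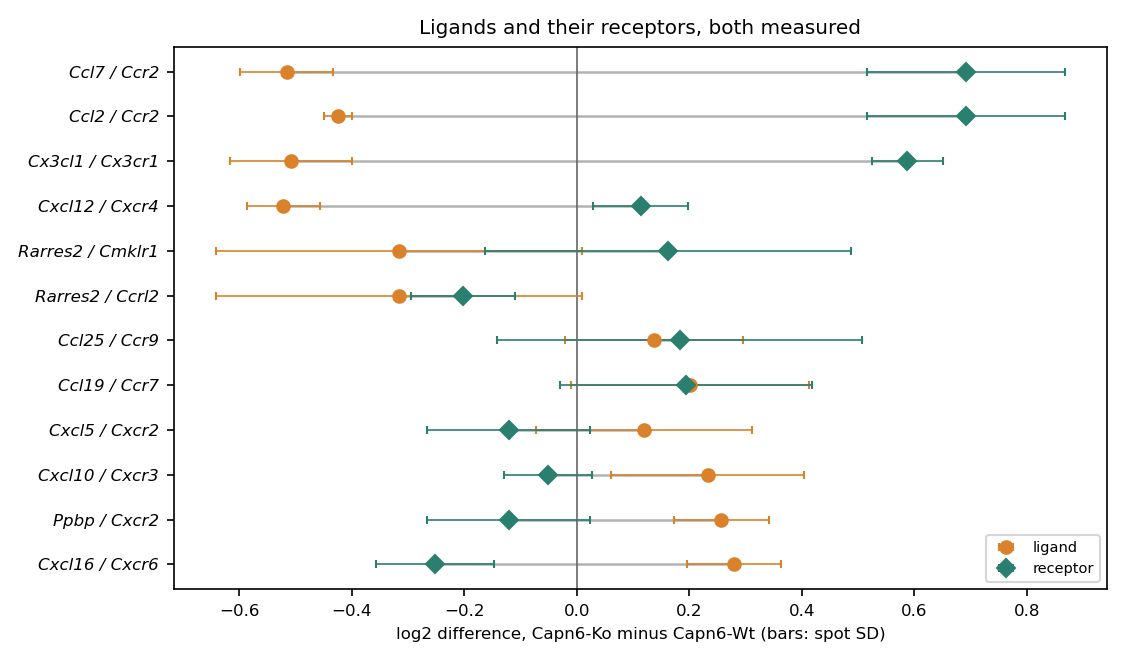
Log2 difference, Capn6-Ko minus Capn6-Wt (x axis), of the ligand (orange circles) and the receptor (green diamonds) in the 12 pairs with both measured, with bars for the spot SD. The widest gaps are those of Ccr2 with Ccl7 and Ccl2 and of Cx3cr1 with Cx3cl1, where the receptor lies right of the ligand, and Cxcl16 with Cxcr6 has the widest gap the other way.

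Other receptors for chemoattractants had a median difference of 0.19, with 9 of 18 measured, 6 positive, 2 higher and none lower. Gpr183, which reads oxysterols and positions immune cells, read 434 in Capn6-Ko and 315 in Capn6-Wt (0.48 ± 0.11), and C5ar1, the receptor of complement C5a, 1568 and 1209 (0.39 ± 0.079). C3ar1 was at 0.19 ± 0.076, the sphingosine phosphate receptor S1pr1 at 0.24 ± 0.10 and Cxcr1, a neutrophil receptor, at -0.23 ± 0.088. The decoy receptors Ackr1, Ackr2, Ackr3 and Ackr4 were not well above background on either array. Of 11 other ligands, chemerin included, 4 were measured and none passed the sizes set.

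Genes that carry the signal of these receptors differed little. All 34 listed were measured, 26 positive, none higher and 1 lower, with a median of 0.037. The lower one was Rgs16, which speeds up the shut-off of inhibitory G proteins, with 289 in Capn6-Ko and 403 in Capn6-Wt (-0.46 ± 0.11). Rgs18, a relative found in platelets and myeloid cells, was at 0.30 ± 0.091, just under the size set. Gnai2, the main inhibitory G protein of white blood cells, was at 0.00041 ± 0.082, and Rac2, a GTPase of cell movement read by 10 spots, at 0.10 ± 0.025. Grk3, a kinase that switches receptors off, was at 0.19 ± 0.030 over 10 spots in Capn6-Ko and 8 in Capn6-Wt.

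**Figure D5:**
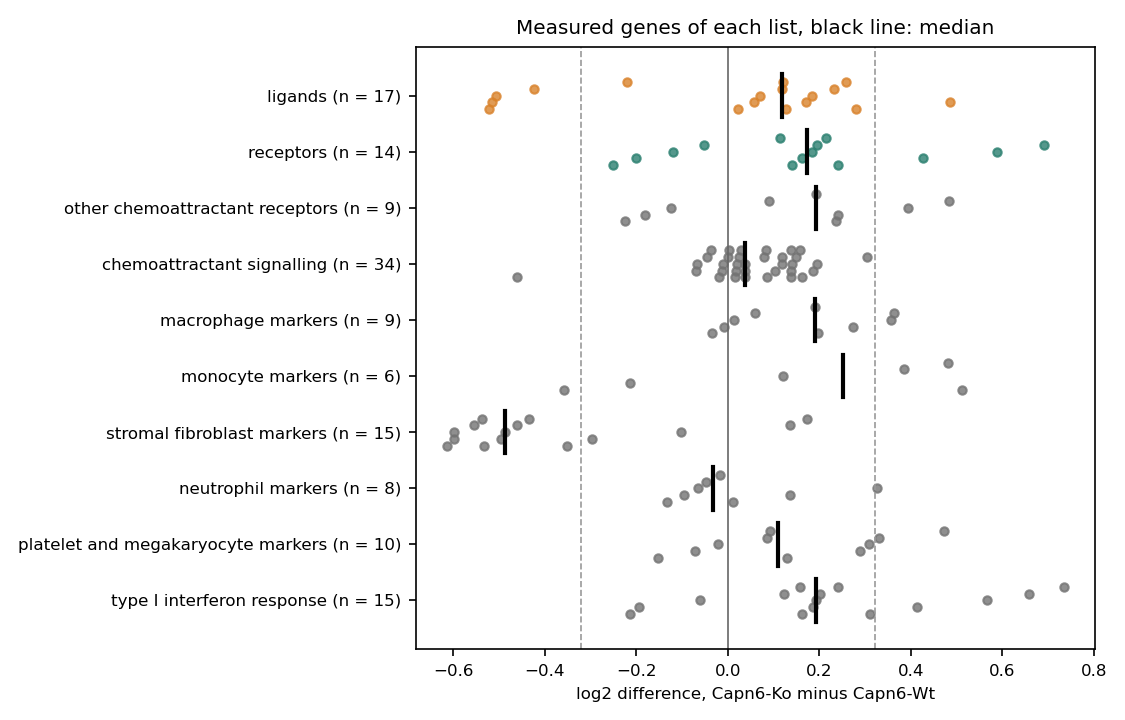
Log2 difference, Capn6-Ko minus Capn6-Wt (x axis), of every measured gene of the ligands, the receptors and 8 further lists, with black lines at the medians and dashed lines at 0.32 either way. Stromal fibroblast markers have the lowest median, -0.49, and the signalling genes cluster near 0 except for Rgs16.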

How the data were processed

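Trizol RNA of 1 pool per group was labelled with Cy3, per the labels, and 1 array was hybridised for each. The deposited values are linear intensities per spot. Per the file headers, they come from version 10.10.1.1 of Agilent Feature Extraction. The processed signal is background-subtracted within each array and not scaled between arrays. The call well above background is the software's own flag in the deposited files. Both arrays were on the same slide and scanned together, per the file headers. The authors' deposited value table is the same intensity times a constant, 2.42 for Capn6-Ko and 2.39 for Capn6-Wt, with column medians of 50.7 and 53.0, uncentred. The setting of the constants was not given in the sources used here.

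Of 59305 non-control spots per array, flagged outliers (136 in Capn6-Ko and 161 in Capn6-Wt) were left out, and none was saturated. Each array's 75th percentile was subtracted on the log2 scale, spots of a probe were averaged, and measured probes of a gene were averaged. Probes were named by RefSeq accession through a RefSeq gene table of GRCm38.p6. The spot SD came from 263 measured probes with at least 5 spots per array, in 8 bins of level. No test was possible with 1 array per group. The sizes counted, 25% more or 20% less signal, are fixed sizes. Background subtraction and normexp (offset 50) were tried on the median signal, since the tables read here hold no mean signal column. The other settings changed the scale, the probe rule and the filter on dim probes. The work ran in Python 3.11.15 with numpy 2.4.6, pandas 2.3.3 and matplotlib 3.10.9, and in R 4.3.3 with limma 3.58.1, and was tested on simulated data. The members and lists were chosen with earlier results of these data known. Every member is named, genes of other lists are named past the sizes set or as partners or defining markers, and Gnai2, Rac2, Grk3, Rgs18, C3ar1, S1pr1, Cxcr1, Tnf, Nfkbia and the decoy receptors were picked after their values were seen.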

Additional observations from a re-analysis of the deposited data

How the results depend on the processing

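The 11 other settings kept Ccl2 (-0.43 to -0.36), Ccl7 (-0.53 to -0.45), Cxcl12 (-0.53 to -0.46), Cx3cl1 (-0.51 to -0.42), Ccl9 (0.48 to 0.55) and Cx3cr1 (0.56 to 0.65) past the sizes set. Ccr2 (0.40 to 0.76) and Fpr1 (0.17 to 0.49) could be computed in 10, and Fpr1 was under the size with normexp and with the median signal minus background (0.25). No such member changed sign, and 28 of all 31 measured members changed sign in none, the others being Ccr9 (-0.028 with normexp and -0.10 with the median signal minus background), Fpr2 (-0.020 with the median signal minus background) and Cxcr3 (0.013 with the median of all probes as the scale). With normexp the median was 0.077 for receptors and 0.084 for all members. With the median of all probes as the scale 2 ligands were higher, and the medians were 0.18 for ligands and 0.19 for all members, since every value shifts by a constant. With brighter probes only, which leave 17 members, 1 receptor was higher and the medians were 0.071 for ligands, 0.031 for receptors and 0.071 for all members. With no filter on dim probes, 43 genes in all, 2 ligands were higher, 1 receptor was lower and the ligand median was 0.055. No paired analysis was possible because each group has 1 array, and for the same reason no replicate could be left out. Low signal over background limits dim ligands and receptors alike, since the spot SD was 0.33 among the dimmest probes and 0.082 among the brightest.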

Other observations

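Genes that NF-kB induces, a transcription factor switched on by TNF-α, had a median near 0. Of 16 listed 15 were measured, 10 of them positive, with a median of 0.020, 1 higher and 1 lower. The higher was Il1b, the gene of interleukin-1β, with 37.1 in Capn6-Ko and 24.3 in Capn6-Wt (0.62 ± 0.10). The lower was Ptgs2, the inducible cyclooxygenase, with 135 in Capn6-Ko and 193 in Capn6-Wt (-0.50 ± 0.044). Tnf read 792 in Capn6-Ko and 745 in Capn6-Wt (0.11 ± 0.028), Nfkbia was at 0.0076 ± 0.078, and Il6 was not well above background on either array.

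Dendritic cell markers were 4 of 10 measured, with a median of 0.048 and a summed signal of 83830 in Capn6-Ko and 85562 in Capn6-Wt. Most of that sum was 1 Siglech probe, with 60082 in Capn6-Ko and 62926 in Capn6-Wt, and Itgax, with 22504 and 21495. The other Siglech probe and the defining genes Flt3 and Zbtb46 were not well above background on either array. Lymphocyte markers were 5 of 10 measured, with a median of -0.062 and 1 lower, Ms4a1 (-0.48 ± 0.31), and a summed signal of 3296 in Capn6-Ko and 3359 in Capn6-Wt.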
